A study of Mus musculus with 76 samples.

Results

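Of 76 single mouse iHPCs, 30 held transcripts of Hoxa9 or Hoxa10 at 1 TPM or more and are called Hox-positive here, and 46 had both genes under 1 TPM and are called Hox-negative. The cells were thus chosen by their measured Hoxa9 and Hoxa10 values. TPM is a gene's share of a cell's transcripts after scaling for gene length, set to the same total in every cell. The labels describe iHPCs as engraftable progenitors grown from pluripotent stem cells with inducible expression of Runx1, Hoxa9 and Hoxa10, able to form mature blood cells in C57BL/6 recipients. Both groups therefore carry the same 3 introduced factors and were sorted as single cells in vitro from the same labelled material. The labels do not state the driving promoter, the clone or the time of induction. Gene-level TPM does not separate an introduced copy from the chromosomal gene.

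Hoxa9 and Hoxa10 encode posterior homeodomain transcription factors that are active in blood stem and early progenitor cells and are shut down as those cells mature. They bind DNA together with cofactors of the Meis and Pbx families, and Hoxa9 with Meis1 is best known from acute myeloid leukaemia. Runx1 binds DNA with its partner Cbfb and is needed for blood cells to emerge from the endothelium of the embryo.

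The Hox-positive cells were lower in lymphoid genes and had more Runx1, Lmo2 and Wfdc17 than the Hox-negative cells. Lck and Lat, which act in T cell receptor signalling, were lower. So was Nkg7, a membrane protein of cytotoxic granules that is in both a lymphoid list and the granulocyte and monocyte list. Meis1, the cofactor of Hoxa9, was detected in 2 Hox-positive cells and 19 Hox-negative cells. Among cells with high Runx1, the differences of Lmo2, Lck and Nkg7 were each under 1 on the log2 scale. Those of Cd200r4, Cyp4f16, Skap2, Flt3, Kcnn4, Spns3 and Lat were over 2 in size. Wfdc17 differed by 2.25 there, against 4.42 over all cells. With Runx1 regressed out over all cells instead, Lmo2 (1.32), Lck (-1.40) and Nkg7 (-1.61) were still past 1, beside Skap2 (1.34), Flt3 (-1.58) and Lat (-1.33).

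No culture, animal or sort is named for any cell, so the 76 cells count as 1 sample and no test between the groups was possible. A difference below is the mean of log2(TPM + 1) over Hox-positive cells minus that over Hox-negative cells, and a gene was called higher or lower when it reached 1 in size. Detected means 1 TPM or more. Of 15192 listed genes, 6778 were detected in at least 15 cells and passed this filter, with Hoxa9 and Hoxa10 left out. The filter counted the cells of both groups together. A rarely detected gene could thus pass mainly through the group where it was higher, and its direction was then partly set by the filter. Of these, 357 (5.27%) were higher and 700 (10.3%) were lower, and the median difference of all 6778 was -0.13. Centring on that median gave 483 higher and 520 lower, so that lower genes made up 51.8% of the called genes against 66.2% before. Library depth is unknown, because TPM does not keep it. Hox-positive cells had a median of 4149.5 genes detected (2465 to 5459, SD 615) and Hox-negative cells 4230.5 (3061 to 5992, SD 705). Ribosomal-protein genes took a median of 6.92% of the TPM in Hox-positive cells and 8.27% in Hox-negative cells. With genes detected regressed out, 343 of the 357 higher genes and 417 of the 700 lower genes still differed by 1 or more. Over all 6778 genes, 514 were then higher and 423 lower, so lower genes no longer outnumbered higher ones. The cell type was taken from the labels. Cd34, a surface protein of stem and progenitor cells, was chosen after its values were seen. It was detected in 30 of 30 Hox-positive and 46 of 46 Hox-negative cells, with medians of 906 TPM in Hox-positive and 549.7 TPM in Hox-negative cells. It reached 10 TPM in 30 Hox-positive and 44 Hox-negative cells, and its lowest Hox-negative value was 2.05 TPM.

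The Hox values are a description of the choice, not a result. Both genes were detected in 16 Hox-positive cells, Hoxa10 without Hoxa9 in 12, and Hoxa9 without Hoxa10 in 2. The levels were modest: Hoxa10 had a median of 16.3 TPM over the 30 cells (0 to 57.4) and Hoxa9 6.53 TPM (0 to 77.4). In 20 Hox-positive cells at least one of the genes reached 10 TPM, and in 10 neither did. Both genes were at 0 in 42 Hox-negative cells. The cells just inside the threshold had 1.32, 1.76, 1.99 and 3.23 TPM of Hoxa10 and none of Hoxa9, and those just outside had 0.861 and 0.518 TPM of Hoxa9 and 0.401 and 0.195 TPM of Hoxa10. A value of 0 in a single cell can be a transcript that was not captured, so a Hox-negative cell is one without detected Hox transcripts. At 10 TPM or more, against the same Hox-negative cells, 410 genes were higher and 1045 lower.

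**Figure D1:**
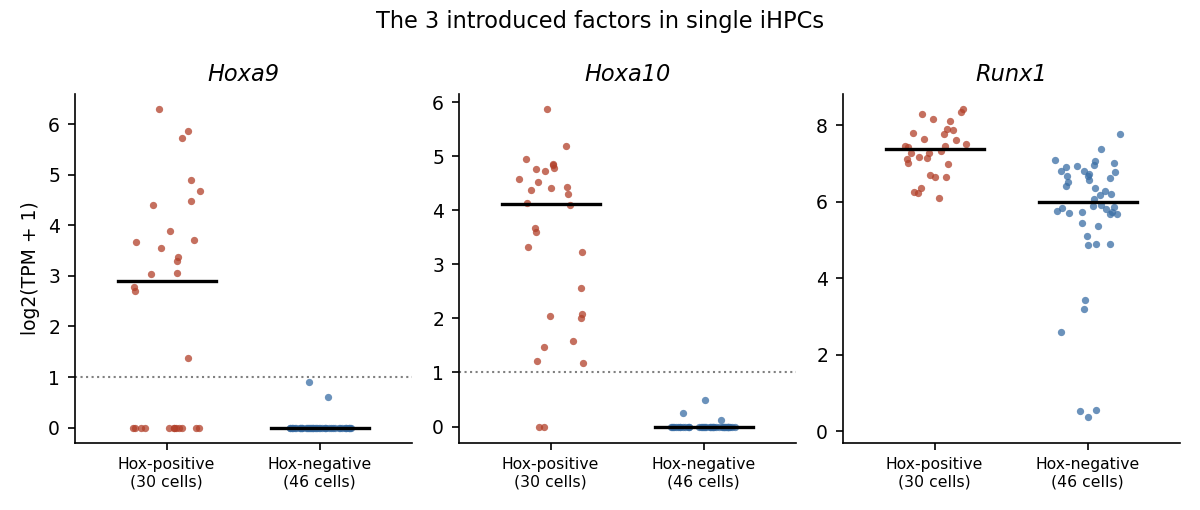
Each point is a cell, the vertical axes give log2(TPM + 1) and the bars mark medians. The dotted line in the Hoxa9 and Hoxa10 panels marks the 1 TPM threshold that set the groups. Every Hox-positive cell had Runx1 above 68 TPM, while Hox-negative cells ran down to 0.304 TPM.

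Runx1, the third introduced factor, was not used to choose the cells (chr16:92601466-92826074, GRCm38.p6). It had 68 TPM in the lowest, 165.9 TPM in the median and 344.0 TPM in the highest Hox-positive cell, against 0.304, 62.7 and 217.6 TPM in Hox-negative cells. All 30 Hox-positive cells thus lay above the median Hox-negative cell, and the groups overlapped between 68 and 217.6 TPM. The difference was 1.69 (SD 0.65 over Hox-positive and 1.72 over Hox-negative cells). It was 1.13 among cells whose titles carry a number from 2 to 6 and 2.30 among those numbered 7 to 11. These numbers have the form of a plate column, although the labels do not say so, and 12 of 37 cells in the lower range and 18 of 39 in the upper were Hox-positive.

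The partners of these factors were examined next. Cbfb, the DNA-binding partner of Runx1, was detected in 15 of 30 Hox-positive and 26 of 46 Hox-negative cells, with a difference of -0.19 whose sign was opposite in the 2 ranges of title numbers (1.21 and -1.39). Meis1 was detected in 6.67% of Hox-positive cells (exact Clopper-Pearson 95% interval 0.818 to 22.1%) and in 41.3% of Hox-negative cells (27 to 56.8%), and these intervals cover the counting of cells only. Its values reached 47.2 TPM in Hox-positive and 223.6 TPM in Hox-negative cells, with a difference of -1.73. Both Hox-positive cells with Meis1 had Hoxa9 and Hoxa10 together. Pbx3, a further Hox cofactor, was detected in 0 of 30 Hox-positive and 0 of 46 Hox-negative cells, which allows shares of up to 10% and 6.52% by 3 counts. Pbx2 was detected in 5 Hox-positive and 7 Hox-negative cells, and of the 8 Hox cofactors listed only Meis1 passed the filter.

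Genes next to the HoxA cluster differed among themselves. Skap2, which encodes an adaptor protein of Src-family kinase signalling and lies on the same chromosome as Hoxa9 and Hoxa10 (chr6:51857422-52012549), had a median of 388 TPM in Hox-positive cells (0 to 1029) and 133.6 TPM in Hox-negative cells (0 to 733). It reached 10 TPM in 28 of 30 Hox-positive and 33 of 46 Hox-negative cells, and its difference was 2.25. Snx10, a sorting nexin gene, was lower (-1.29), and Hibadh, an enzyme of valine breakdown, differed by 0.22. Of the 19 genes that passed from a list of 22 genes tied to Hoxa9 or Hoxa10 in blood cells, 2 were higher, Lmo2 among them, and 3 were lower (Meis1, Flt3 and Satb1), with a median difference of 0.060. Flt3, a growth factor receptor of early and lymphoid-primed progenitors, was detected in 11 of 30 Hox-positive and 29 of 46 Hox-negative cells (difference -1.64). Myb differed by -0.011, Cdk6 by 0.17 and Sox4 by -0.30, all 3 of which are regulators of progenitor growth.

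The promoters of Wfdc17 and Cd200r4, and of Kcnn4 and Nkg7, are shown for the ends of the ranking of genes. They belong to the genes nearest each end that had only 1 promoter entry. That of Meis1 is shown as a lower gene named above. Each sequence runs 5′ to 3′ on the gene's own strand from 250 bases before to 50 after a listed start, from RefSeq's GRCm38.p6 annotation. A gene can have further starts: the Cd200r4 window lies inside the annotated gene (chr16:44811650-44839150), and the starts used for Kcnn4 and Meis1 also lie within the genes' annotated spans. Capitals mark TGTGGT, the core recognised by Runx proteins, and TTTAT, the core preferred by posterior Hox proteins, on either strand, where they read ACCACA and ATAAA. Wfdc17 (chr11:83703806-83704105, plus strand) and Cd200r4 (chr16:44820478-44820777, plus strand) were higher in Hox-positive cells. Kcnn4 (chr7:24370013-24370312, plus strand), Nkg7 (chr7:43436888-43437187, plus strand) and Meis1 (chr11:19018920-19019219, minus strand) were lower.
Wfdc17: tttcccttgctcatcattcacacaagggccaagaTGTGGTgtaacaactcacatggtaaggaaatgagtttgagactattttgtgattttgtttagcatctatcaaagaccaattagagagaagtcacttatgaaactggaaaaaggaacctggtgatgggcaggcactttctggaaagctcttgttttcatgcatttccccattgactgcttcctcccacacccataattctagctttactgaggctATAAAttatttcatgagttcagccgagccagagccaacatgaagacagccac
Cd200r4: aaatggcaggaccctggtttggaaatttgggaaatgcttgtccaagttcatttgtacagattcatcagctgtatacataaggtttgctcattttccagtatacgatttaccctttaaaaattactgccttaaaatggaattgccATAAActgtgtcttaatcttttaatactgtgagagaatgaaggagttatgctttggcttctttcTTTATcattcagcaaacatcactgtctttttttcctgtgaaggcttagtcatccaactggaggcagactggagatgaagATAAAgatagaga
Kcnn4: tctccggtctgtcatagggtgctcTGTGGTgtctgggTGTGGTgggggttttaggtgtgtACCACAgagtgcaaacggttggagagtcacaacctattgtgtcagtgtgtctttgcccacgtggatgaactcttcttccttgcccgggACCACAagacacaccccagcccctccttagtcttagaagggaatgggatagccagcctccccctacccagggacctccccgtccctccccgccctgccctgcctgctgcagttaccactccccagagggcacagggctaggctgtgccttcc
Nkg7: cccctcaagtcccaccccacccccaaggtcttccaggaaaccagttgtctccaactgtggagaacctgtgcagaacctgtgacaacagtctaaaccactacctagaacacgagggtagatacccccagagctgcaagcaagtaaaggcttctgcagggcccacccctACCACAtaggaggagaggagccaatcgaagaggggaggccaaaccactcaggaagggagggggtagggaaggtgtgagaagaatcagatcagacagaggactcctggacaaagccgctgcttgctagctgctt
Meis1: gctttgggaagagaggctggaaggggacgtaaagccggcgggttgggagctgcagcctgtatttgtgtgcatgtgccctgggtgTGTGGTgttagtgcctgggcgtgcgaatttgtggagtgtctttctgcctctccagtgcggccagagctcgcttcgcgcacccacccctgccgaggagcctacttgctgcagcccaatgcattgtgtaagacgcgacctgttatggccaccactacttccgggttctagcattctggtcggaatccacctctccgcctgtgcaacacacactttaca
The Cd200r4 window holds TTTAT 3 times and TGTGGT 0 times, and the Kcnn4 window holds TGTGGT 4 times and TTTAT 0 times.

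Of the 12 genes with the largest positive and the 12 with the largest negative differences, 9 on each side had promoter entries. TTTAT was present for 8 of the 9 higher genes and 1 of the 9 lower genes, and 40.01% of all 32851 promoter windows of this length hold it. TGTGGT was present for 2 of the 9 higher and 6 of the 9 lower genes, against 16.8% of all windows. The reverse complement of TTTAT lies inside TATAAA, the TATA box. TATAAA was present for 1 higher gene (Wfdc17), 1 lower gene (Tsfm) and in 13.6% of all windows. The only TTTAT match in the Wfdc17 window lies inside TATAAA. GAGGAAGT, a form of the site bound by the myeloid factor PU.1, was present for 1 higher and 0 lower genes, against 3.20% of all windows. All 4 motifs were searched on both strands. Mgst1, Plac8 and Lck had 2 entries, and a gene counted when any entry held the motif, while the shares are per window. Of the windows shown, G and C made up 42% for Wfdc17 and 36.7% for Cd200r4. They made up 59.7% for Kcnn4, 55.7% for Nkg7 and 58.3% for Meis1. Whether base composition bears on the counts of TTTAT, which holds only A and T, was not tested. Each window holds 1 listed start, which need not be the one used in these cells. These counts describe letters in short windows of 18 ranked genes, and no binding was measured.

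The 12 genes that were highest relative to Hox-negative cells, with the same sign in both ranges of title numbers, were Wfdc17, Lmo2, Cd200r4, Cyp4f16, Mgst1, Ms4a6c, Clec10a, Ms4a6b, Gng11, Mpp1, Ms4a3 and Ripk3. Wfdc17, a small secreted protein of activated mouse macrophages, had 2.73 TPM in the lowest, 954 TPM in the median and 24174 TPM in the highest Hox-positive cell, against 0, 8.21 and 5773 TPM in Hox-negative cells. It reached 10 TPM in 25 of 30 Hox-positive and 21 of 46 Hox-negative cells, and its difference of 4.42 was the largest (SD 3.49 over Hox-positive and 3.97 over Hox-negative cells). Both groups thus held cells with and without high Wfdc17, in different proportions. Lmo2, a bridging protein of the Tal1 and Gata complexes of blood stem cells, had 0, 245 and 1608 TPM in the lowest, median and highest Hox-positive cell, against 0, 3.51 and 659 TPM in Hox-negative cells. It too reached 10 TPM in 25 Hox-positive and 21 Hox-negative cells, with a difference of 3.38 (SD 3.08 over Hox-positive and 3.39 over Hox-negative cells). At that level, 22 Hox-positive and 15 Hox-negative cells held both Wfdc17 and Lmo2.

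Several of the other higher genes belong to the myeloid surface. Cd200r4, a member of the CD200 receptor family, had a median of 136 TPM in Hox-positive cells (0 to 1338) and 0.50 TPM in Hox-negative cells (0 to 1072), and reached 10 TPM in 18 Hox-positive and 9 Hox-negative cells. Clec10a, a C-type lectin of macrophages and dendritic cells, had medians of 547 TPM in Hox-positive and 63.6 TPM in Hox-negative cells (difference 2.65). Ms4a3, a marker of granulocyte and monocyte progenitors, reached 10 TPM in 15 of 30 Hox-positive and 7 of 46 Hox-negative cells (difference 2.53). Together with Ms4a6c (2.86) and Ms4a6b (2.64), it made up the 3 Ms4a genes that passed the filter, of 8 listed, and all 3 were higher. Ms4a genes form a family of membrane proteins, and reads of close relatives such as Ms4a6b and Ms4a6c can be exchanged.

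The remaining higher genes encode enzymes and signalling or membrane proteins. Cyp4f16, a cytochrome P450 enzyme, reached 10 TPM in 23 of 30 Hox-positive and 14 of 46 Hox-negative cells (difference 3.16). Mgst1, a membrane-bound glutathione transferase, reached that level in 19 Hox-positive and 11 Hox-negative cells (2.91). Gng11, a G protein gamma subunit, was detected in 15 of 30 Hox-positive and 8 of 46 Hox-negative cells (2.59). Mpp1, a membrane skeleton protein, reached 10 TPM in 20 Hox-positive and 15 Hox-negative cells (2.58). Ripk3, a kinase of necroptotic cell death, had medians of 203.6 TPM in Hox-positive and 92.0 TPM in Hox-negative cells. Its difference of 2.49 was 0.63 in title numbers 2 to 6 and 4.17 in 7 to 11, and it was -0.17 among cells with more genes detected. Mpp1 overlaps Dkc1 on the opposite strand (difference -0.34), and Lmo2, Ms4a6c and Ms4a6b overlap opposite-strand genes as well; the counting strand was not stated.

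**Figure D2:**
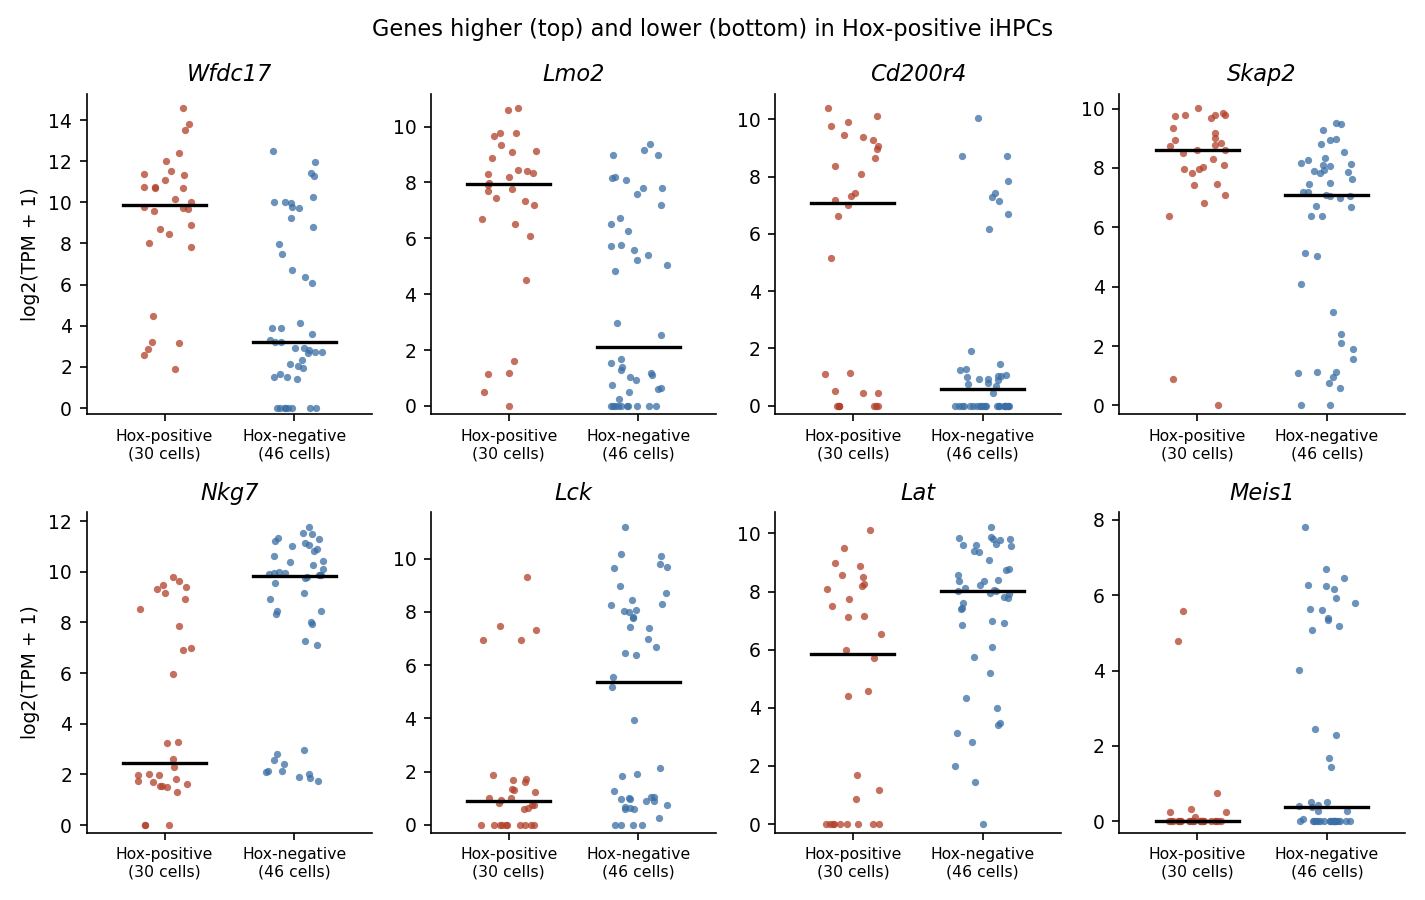
Each point is a cell and each bar a median, on a vertical axis of log2(TPM + 1), with Hox-positive cells on the left of each panel. Both groups spread widely for the genes other than Meis1, and the share of cells near the top of the range differs, as for Nkg7 at 10 TPM (12 of 30 Hox-positive and 35 of 46 Hox-negative cells).

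The 12 lowest genes relative to Hox-negative cells were Kcnn4, Nkg7, Spns3, Susd3, Timm21, Plac8, Lck, Armc10, Lat, Gt(ROSA)26Sor, Tsfm and Elovl5. Kcnn4, a calcium-activated potassium channel of blood cells, had 0, 0.19 and 312.9 TPM in the lowest, median and highest Hox-positive cell, against 0, 133 and 667 TPM in Hox-negative cells. It was detected in 36.7% of Hox-positive cells (interval 19.9 to 56.1%) and 80.4% of Hox-negative cells (66.1 to 90.6%), with a difference of -3.69 (SD 2.96 over Hox-positive and 3.17 over Hox-negative cells). Spns3, a member of the spinster family of transporters, was detected in 23.3% of Hox-positive (9.93 to 42.3%) and 69.6% of Hox-negative cells (54.2 to 82.3%), with a difference of -3.32. Neither gene separated the groups completely, since 11 Hox-positive cells held Kcnn4 and 14 Hox-negative cells lacked Spns3.

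Genes of T cells and cytotoxic lymphocytes were also among the lower genes. Nkg7 had 0, 4.499 and 886 TPM in the lowest, median and highest Hox-positive cell, against 2.34, 906 and 3487 TPM in Hox-negative cells (difference -3.68, SD 3.56 over Hox-positive and 3.49 over Hox-negative cells). Lck, the kinase that starts T cell receptor signalling, had 0, 0.84 and 637 TPM in Hox-positive cells, against 0, 40.8 and 2345 TPM in Hox-negative cells (difference -2.86, SD 2.72 over Hox-positive and 3.82 over Hox-negative cells). Lat, the adaptor that Zap70 phosphorylates in T cells, had medians of 57.2 TPM in Hox-positive and 257 TPM in Hox-negative cells (difference -2.60). At 10 TPM, Lck and Nkg7 were found together in 3 of 30 Hox-positive and 25 of 46 Hox-negative cells. No Hox-negative cell had Lck at that level without Nkg7. Nkg7 without Lck was found in 9 Hox-positive and 10 Hox-negative cells. Nkg7 is also in the granulocyte and monocyte list used below, so it does not mark lymphoid cells alone. Lmo2 without Lck was the pattern of 22 Hox-positive and 13 Hox-negative cells. Plac8, expressed in both myeloid and lymphoid progenitors, had medians of 156 TPM in Hox-positive and 1082 TPM in Hox-negative cells (difference -2.97).

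Other lower genes serve general functions. Timm21 encodes a subunit of the import machinery of the inner mitochondrial membrane (difference -2.999), Tsfm an elongation factor of mitochondrial translation (-2.47) and Elovl5 a fatty acid elongase (-2.44). Gt(ROSA)26Sor, the noncoding transcript of the Rosa26 locus, which is widely used to insert transgenes in the mouse, had medians of 0.37 TPM in Hox-positive and 72.6 TPM in Hox-negative cells. It reached 10 TPM in 7 of 30 Hox-positive and 28 of 46 Hox-negative cells (difference -2.50). The insertion site of the 3 factors was not stated, and whether it bears on this transcript was not tested. The locus overlaps Thumpd3 on the opposite strand, which differed by -0.51, Tsfm overlaps Avil (0.15) and Timm21 overlaps Fbxo15.

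**Figure D3:**
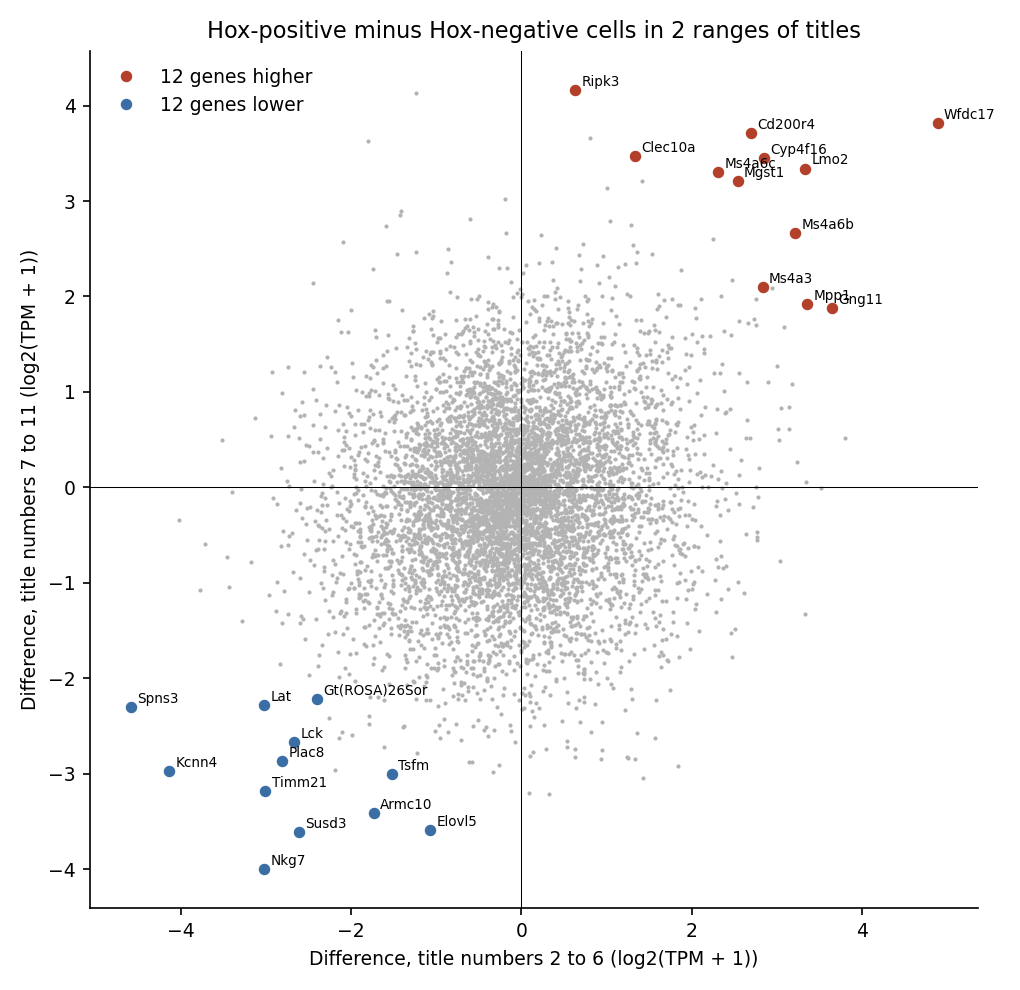
Each point is a gene that passed the filter, placed by its difference among cells with title numbers 2 to 6 (horizontal axis) and 7 to 11 (vertical axis), both in log2(TPM + 1). The labelled genes were chosen to have the same sign in both ranges, and Ripk3 and Clec10a lie closest to 0 on the horizontal axis among the higher ones. Over all genes, 338 (4.99%) were higher by 1 or more with the same sign in both ranges and 636 (9.38%) were lower.

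Gene lists of blood lineages were then compared, each read against the 5.27% of all genes that were higher and the 10.3% that were lower. Of 18 T lymphoid genes, 8 passed the filter. Of these, 0 were higher and 6 were lower (Lck, Lat, Tox, Cd7, Trat1 and Tcf7), with a median difference of -1.77. Trat1 was detected in just 15 cells, 2 Hox-positive and 13 Hox-negative, and so passed the filter mainly through Hox-negative cells. Gata3, a T cell and stem cell regulator, differed by 0.53. A Hox-positive cell detected a median of 2 of the 18 genes (1 to 10) and a Hox-negative cell 4 (1 to 11), with summed levels of 199 TPM (1.53 to 3399) in Hox-positive and 645 TPM (6.30 to 11901) in Hox-negative cells. Tcf7, the transcription factor that begins T cell development, reached 10 TPM in 2 Hox-positive and 13 Hox-negative cells, and without those cells the median difference of the list was -0.67. With no minimum number of cells it was -0.23 over the 18 genes.

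Early lymphoid genes were mixed. Of 10 that passed, 1 was higher and 4 were lower (median -0.58). Cd27 (-2.07), Satb1 (-1.57), Ltb (-1.45) and Tcf3 (-1.07) were lower. Cd27, a surface receptor of multipotent and lymphoid progenitors, was detected in 8 of 30 Hox-positive and 25 of 46 Hox-negative cells. Satb1, a chromatin organiser of lymphoid priming, was detected in 6 Hox-positive and 24 Hox-negative cells. The 1 B lymphoid gene that passed, Cd79b of the B cell receptor, was detected in 6 Hox-positive and 22 Hox-negative cells (-2.003). Of the 3 genes of natural killer and innate lymphoid cells that passed, Nkg7 was lower, Gzma, a granzyme, differed by -0.87 and Id2, a regulator of innate lymphoid cells, by 0.59.

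Granulocyte and monocyte genes went both ways. Of 16 that passed, 5 were higher (Ms4a3, Ctsg, Csf3r, Lyz2 and Cd33) and 3 lower (Nkg7, Plac8 and Fcgr2b), with a median of 0.23. Ctsg, a serine protease of granules, had medians of 67 TPM in Hox-positive and 1.72 TPM in Hox-negative cells (difference 1.999, SD 4.25 over Hox-positive and 3.95 over Hox-negative cells). The related granule genes did not share this: Mpo differed by 0.010, with medians of 3.01 TPM in Hox-positive and 75.4 TPM in Hox-negative cells, and Prtn3 by -0.062. Csf3r, the receptor of granulocyte colony-stimulating factor, was detected in 10 of 30 Hox-positive and 8 of 46 Hox-negative cells (1.28). Of 6 dendritic cell genes that passed, Tcf4 (1.69), H2-Ab1 (1.51) and Cd74 (1.002) were higher and Flt3 was lower. H2-Ab1 and Cd74 present antigen with MHC class II, and Tcf4 is a regulator of plasmacytoid dendritic cells. Of 3 macrophage genes that passed, Cd68 was lower (-1.59), and Csf1r differed by 0.71 and Ctsb by 0.33.

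Stem and progenitor genes were split as well. Of 14 regulators that passed, Lmo2, Hhex and Gata2 were higher and Meis1, Gfi1b and Fli1 were lower (median -0.071). Gata2, a regulator of blood stem cells, was detected in 17 of 30 Hox-positive and 19 of 46 Hox-negative cells (1.02). Gfi1b, needed for red cell and platelet formation, was detected in 4 Hox-positive and 15 Hox-negative cells (-1.72). Fli1, an Ets factor of endothelium and blood, was detected in 16 Hox-positive and 37 Hox-negative cells (-1.36). Of 13 surface genes, 3 were higher and 2 lower (median 0.31). Cd48, a surface protein of progenitors, had medians of 1675 TPM in Hox-positive and 745 TPM in Hox-negative cells (1.19). Kit, the stem cell factor receptor, differed by -0.76, and Ly6a, which encodes Sca-1, by 0.41.

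Among cell cycle genes more were lower than higher, as among all genes (10.3% lower and 5.27% higher). All 25 S phase genes passed, 0 were higher and 6 lower (Rfc5, Fen1, Hells, Cdt1, Cdc45 and Ung), with a median of -0.51. A Hox-positive cell detected a median of 10 of them (5 to 25) and a Hox-negative cell 15 (5 to 25). Rfc5, of the clamp loader of DNA replication, had medians of 1.09 TPM in Hox-positive and 118.8 TPM in Hox-negative cells (-1.55). Pcna, the clamp itself, differed by -0.67 and Mcm6, of the replicative helicase, by -0.010. Of 16 G2 and M phase genes that passed, 0 were higher and Cdk1 (-1.45) and Aurkb (-1.52), both mitotic kinases, were lower. None of the 7 genes of quiescence and cell cycle inhibition that passed reached 1 either way, and their median was 0.64. Genes detected per cell move with such counts. The median difference of the S phase list was -1.12 among cells with more genes detected, 0.16 among cells with fewer and -0.20 with genes detected regressed out, so its sign depended on this split.

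The remaining lists held few called genes. Of 5 endothelial genes that passed, Plvap, a protein of endothelial diaphragms, was higher and was detected in 13 of 30 Hox-positive and 5 of 46 Hox-negative cells (2.05). Both erythroid genes that passed were lower, with differences of -1.16 for Car2 and -1.05 for Tfrc. Tfrc was detected in 4 of 30 Hox-positive and 15 of 46 Hox-negative cells, and so passed the filter mainly through Hox-negative cells. Of the 11 listed erythroid genes, 6 were in 0 cells. Of 4 megakaryocyte genes that passed, 1 was higher and 0 lower. The 4 mast cell and basophil genes had 0 called members. Runx3 was lower (-1.01) within the Runx1 complex list, where Runx1 itself was higher. Of 10 Hox chromatin regulators only Rnf2 was lower (-1.14). Survival genes had 1 lower of 11, stress genes 1 lower of 11, interferon response genes 1 higher of 13, glycolysis genes 1 higher and 1 lower of 16 and housekeeping genes 1 lower of 15. The 1 stromal gene that passed was not called, and of 8 pluripotency and early mesoderm genes listed none passed and 7 were in 0 cells.

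**Figure D4:**
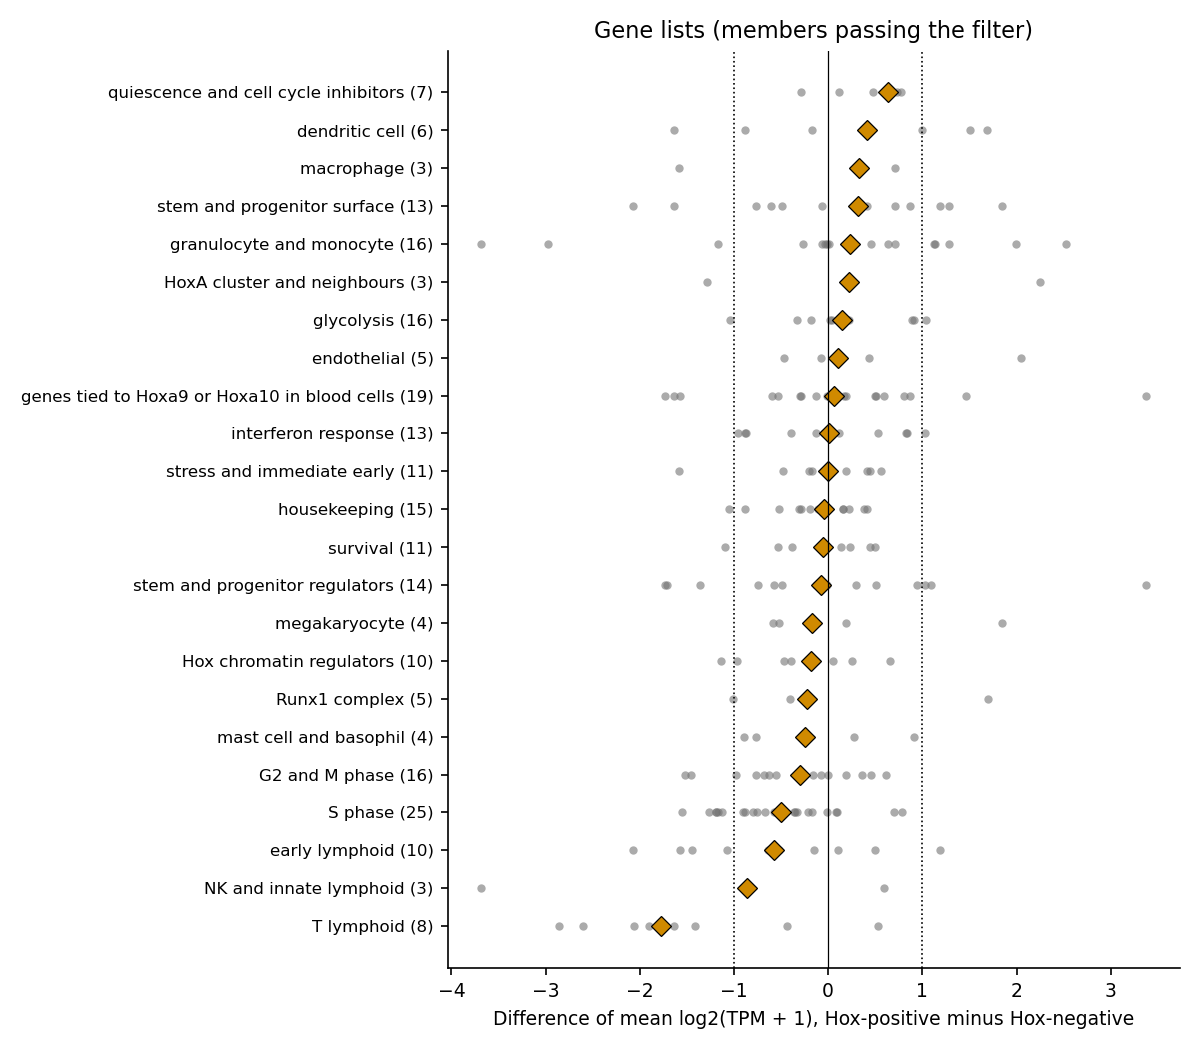
Each row is a gene list with at least 3 genes that passed the filter (number in brackets), each grey point a gene and each diamond the list's median. The horizontal axis is the difference of mean log2(TPM + 1), Hox-positive minus Hox-negative, and dotted lines mark -1 and 1. T lymphoid genes have the lowest median (-1.77) and cell cycle inhibitors the highest (0.64).

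Since Runx1 was higher in Hox-positive cells, the groups were compared again among cells with Runx1 at or above the median of all 76 cells, which held 24 Hox-positive and 14 Hox-negative cells. Runx1 itself still differed there by 0.61, with medians of 179 TPM in Hox-positive and 121 TPM in Hox-negative cells. Of the 357 higher genes, 232 were again higher by 1 or more, and of the 700 lower genes, 426 were again lower. In so few cells, 724 of all 6778 genes were higher and 998 lower, and the cells are a subset of the same cells.

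Lmo2, Lck and Nkg7 each differed by less than 1 in this subset. Lmo2 had a median of 271 TPM in the 24 Hox-positive and 207 TPM in the 14 Hox-negative cells, with a difference of 0.70. In the 32 Hox-negative cells with less Runx1 its median was 1.16 TPM. Lck had medians of 0.84 TPM in Hox-positive and 0.90 TPM in Hox-negative cells with high Runx1 (-0.38), against 195 TPM in Hox-negative cells with less. Nkg7 had 3.003 TPM in Hox-positive and 5.46 TPM in Hox-negative cells with high Runx1 (-0.98), and 983 TPM in Hox-negative cells with less. Among Hox-negative cells, Lmo2 was thus high and Lck and Nkg7 were low where Runx1 was high. Wfdc17 too had a higher median in Hox-negative cells with high Runx1 (938 TPM) than in those with less (6.33 TPM). In Hox-positive cells with high Runx1 the median of Wfdc17 was 1396 TPM, and its difference in the subset was 2.25. The T lymphoid list had a median difference of -0.023 in the subset, Tox differed by -0.065, Ctsg by -0.054 and Clec10a by 0.47.

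Other genes differed by more than 2 among cells with high Runx1. Cd200r4 had a median of 221 TPM in the 24 Hox-positive and 0.82 TPM in the 14 Hox-negative cells (difference 3.95). In the 6 Hox-positive cells with less Runx1 it did not exceed 1.18 TPM. Cyp4f16 reached 10 TPM in 20 of 24 Hox-positive and 4 of 14 Hox-negative cells (3.82). Skap2 had medians of 433 TPM in Hox-positive and 133 TPM in Hox-negative cells (3.02), the second being close to its median of 139.5 TPM in Hox-negative cells with less Runx1. Flt3 reached 10 TPM in 8 of 24 Hox-positive and 11 of 14 Hox-negative cells (-2.91), and Kcnn4 in 6 of those Hox-positive and 10 of those Hox-negative cells (-3.50). Spns3 (-2.88), Armc10 (-2.71), Gt(ROSA)26Sor (-2.54) and Lat (-2.06), the T cell adaptor, were lower as well. Meis1 was detected in 0 of 24 Hox-positive and 5 of 14 Hox-negative cells.

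Regressing Runx1 out of every gene over all 76 cells left smaller contrasts between these genes. The fit pooled all cells without a term for the Hox groups, between which Runx1 itself differed. It can thus also remove part of a difference that goes with the groups, and does not give the difference at equal Runx1. Of the 357 higher genes, 125 were then still higher by 1 or more, and of the 700 lower genes 318 were still lower. Lmo2 differed by 1.32, Lck by -1.40, Nkg7 by -1.61 and Lat by -1.33. Skap2 differed by 1.34, Flt3 by -1.58 and Gt(ROSA)26Sor by -1.31. Wfdc17 (2.50), Cyp4f16 (2.13), Cd200r4 (2.002), Kcnn4 (-2.37) and Spns3 (-2.32) were over 2 in size. Meis1 differed by -0.79.

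**Figure D5:**
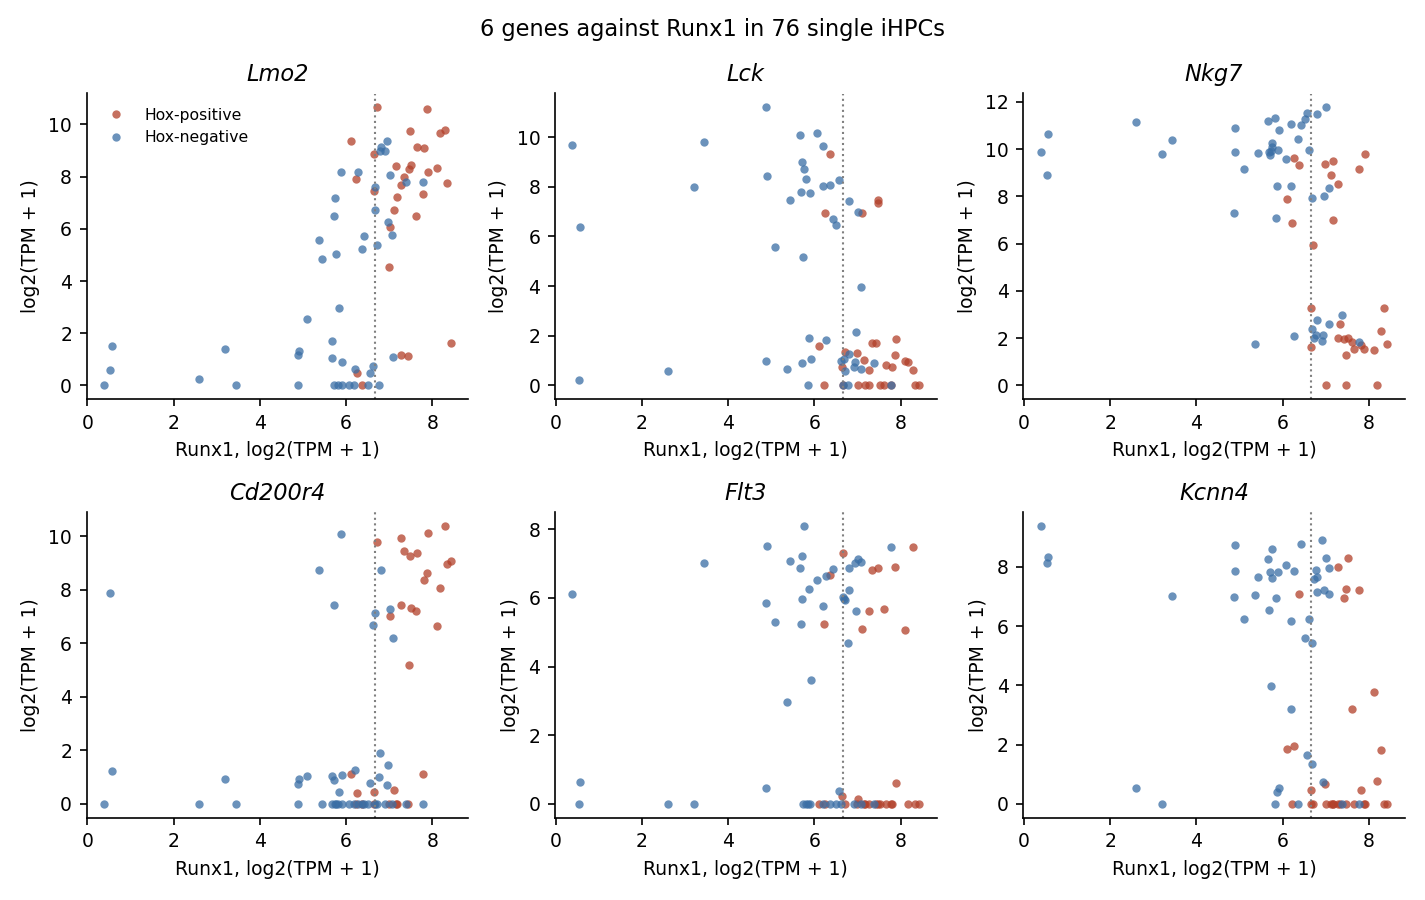
Each point is a cell, placed by Runx1 (horizontal axis) and by the named gene (vertical axis), both as log2(TPM + 1), and the dotted line is the median of Runx1. Right of that line Lmo2, Lck and Nkg7 differ by 0.70, -0.38 and -0.98 between Hox-positive and Hox-negative cells, and Cd200r4, Flt3 and Kcnn4 by 3.95, -2.91 and -3.50.

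Hox-positive cells with both Hox genes and those with Hoxa10 alone were alike in some of these genes and unlike in others, given here as medians without a test. Runx1 had 177 TPM in the 16 cells with both and 154 TPM in the 12 with Hoxa10 alone. Lmo2 had 233 TPM with both and 223 TPM with Hoxa10 alone. Cyp4f16 had 95.8 TPM with both and 107 TPM with Hoxa10 alone. Ms4a6b had 140 TPM with both genes and 0.41 TPM with Hoxa10 alone, and was detected in 13 of 16 and 5 of 12 cells. Gng11 was detected in 7 of 16 cells with both and 7 of 12 with Hoxa10 alone, with medians of 0 TPM with both and 95.9 TPM with Hoxa10 alone. Nkg7 had 4.04 TPM with both and 61 TPM with Hoxa10 alone. The 2 cells with Hoxa9 alone are too few to describe as a group.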

How the data were processed

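The authors deposited 1 table of TPM, with 15192 genes and a column for each of 76 cells. Tools named in the submitters' processing notes are StringTie 1.3.4, HISAT2 2.1.0, SAMtools 0.1.19 and bcl2fastq, with the build mm10. Their annotation, counting strand and filters were not stated. Per the labels, single cells were sorted and cDNA was amplified and made into libraries with Vazyme kits. Every column sums to the same total, so depth is unknown and its precision cannot be given.

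From this table, differences of mean log2(TPM + 1), with a pseudocount of 1, were computed with Python 3.11.15, numpy 2.4.6, pandas 2.3.3 and scipy 1.17.1, and figures were drawn with matplotlib 3.10.9. Cells count as 1 sample, so no p-value was made, and no doublet caller was run on sorted single cells. Of all values, 66.3% were 0. Shares carry exact Clopper-Pearson 95% intervals. The computing of differences was checked on the real values shuffled among cells with known shifts added. This covers the arithmetic only, not the threshold, the filter or missed transcripts.

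Members, the 28 gene lists (432 genes, 381 in the table) and alternatives were chosen with earlier results of these data known. Named genes were Runx1, Cbfb, Meis1, Pbx2, Pbx3 and Skap2, the 12 largest differences each way with the same sign in both ranges of title numbers, and the 3 largest in each list. Ribosomal-protein, predicted and pseudogenes were left out of the 12. Some genes that this rule takes are not reported here. Genes chosen after their values were seen were Cd34, Cd48, Gp49a, Lilrb4, Ctsg, Prtn3, Mpo, Csf3r, Gata2, Fli1, Hhex, Lyz2, Cd33, Fcgr2b, Myb, Cd74, Tcf7, Gata3, Cd7, Trat1, Tcf3, Ly6a, Myd88, Irak3, Plek, Cdk6, Pcna, Mcm6, Cdt1, Cdc45, Ung, Sox4, Thumpd3, Dkc1, Avil and Fbxo15. Alternatives varied the Hox threshold and gene, pseudocount, filter, low values, title numbers, genes detected, Runx1, scaling and single cells. Of the listed symbols, 92.3% were symbols in RefSeq's GRCm38.p6 annotation.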

Additional observations from a re-analysis of the deposited data

How the results depend on the processing

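Of 28 leading genes, 27 kept the sign of their difference under all 23 alternatives run on them. The exception was Ripk3 (-0.17 among cells with more genes detected). Beside Meis1, Skap2, Flt3 and Cd27, the 28 were the genes named for the largest differences each way. Those were chosen to have the same sign in title numbers 2 to 6 and 7 to 11, and both ranges are among the alternatives. Small shifts could hardly turn differences of that size either. The count of 27 was thus partly set by the choice of genes. The number of higher genes, 357, was 639 with Hoxa9-positive cells, 736 with cells holding both Hox genes, 670 and 79 with pseudocounts of 0.1 and 10, 173 with detection in at least 38 cells, 833 with title numbers 2 to 6, 717 with numbers 7 to 11, 779 and 843 in cells with more and fewer genes detected, 157 with Runx1 regressed out and 724 in cells with Runx1 at or above the median. The number of lower genes, 700, was 1375 and 87 with the 2 pseudocounts, 433 with at least 38 cells, 1107 in title numbers 2 to 6, 423 with genes detected regressed out and 400 with Runx1 regressed out. Higher genes outnumbered lower genes with genes detected regressed out (514 against 423) and with cells holding both Hox genes (736 against 679). Leaving out each cell in turn gave 331 to 406 higher and 646 to 778 lower genes. Without the cells under 3000 genes there were 406 higher and 646 lower. Fewer cells or genes by construction changed several of these counts; the other causes were not tested.

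The median of the T lymphoid list, -1.77, was -0.23 with no minimum number of cells, -0.96 in cells with more genes detected, -0.73 with Runx1 regressed out, -0.0234 with Runx1 at or above the median and -0.67 without cells with Tcf7 at 10 TPM or more, a setting chosen after seeing the data. That of natural killer and innate lymphoid genes, -0.87, was -1.08 with Hox genes at 10 TPM, -1.21 with a pseudocount of 0.1, -1.05 in title numbers 7 to 11, -1.44 in cells with fewer genes detected and from -1.19 to -0.61 with 1 cell left out. Dendritic cell genes had 1.002 with at least 38 cells and 1.03 in cells with more genes detected, where HoxA neighbours had 1.02, S phase genes -1.12 and cell cycle inhibitors 1.18. The S phase median, -0.51, was 0.16 in cells with fewer genes detected and -0.20 with genes detected regressed out. Endothelial genes had 1.04 in title numbers 2 to 6 and granulocyte and monocyte genes 1.34 in cells with fewer genes detected. Runx1 differed by 0.61 among cells at or above its median.

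Of genes higher or lower by 1, those whose sign turned in cells with more genes detected were, beside Ripk3, Rnf2 (1.04), Ldhb (0.0165), Fli1 (0.0115) and Tcf7 (0.23). In cells with fewer genes detected they were Hells (0.13) and Cd74 (-0.12). Ldhb was 0.23 with Runx1 regressed out. With Runx1 at or above the median they were Snx10 (0.17), Cd68 (0.0926), Pmaip1 (0.86), Ctsg (-0.0542), Tcf7 (0.40) and Cd7 (0.0181), and Tcf7 was 0.11 without the cells that held it at 10 TPM. No paired analysis was possible because all cells belong to 1 labelled group. Unknown depth limits every statement on a gene at 0.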

Other observations

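The following 5 genes outside the lists were picked because they were higher in Hox-positive cells, and stand for no group. Myd88, the adaptor of Toll-like receptors, had medians of 170 TPM in Hox-positive and 1.26 TPM in Hox-negative cells (difference 2.09). Irak3, an inhibitor of that pathway, was detected in 17 of 30 Hox-positive and 10 of 46 Hox-negative cells (2.17). Plek, the protein kinase C substrate pleckstrin, had medians of 90.8 TPM in Hox-positive and 0.98 TPM in Hox-negative cells (2.40). The inhibitory receptor gene Lilrb4 had 1188 TPM in Hox-positive and 309 TPM in Hox-negative cells (2.49), and its near-identical copy Gp49a had 533 TPM in Hox-positive and 145 TPM in Hox-negative cells (2.43), so reads of this pair can be exchanged.

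Mitochondrial gene families were close to the background. Of 76 mitochondrial ribosomal protein genes that passed the filter, 3 were higher and 9 lower (median -0.12). Of 43 Nduf genes, subunits of respiratory complex I and its assembly factors, 1 was higher and 5 lower (-0.24), and of 22 Timm and Tomm genes of protein import 0 were higher and 3 lower (-0.30). Among 90 cytosolic ribosomal protein genes 1 was higher and 0 lower, but 80 had a difference below 0 (median -0.22), beside 58.4% of all 6778 genes and a median of -0.13 over them.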
